A study of Mus musculus with 12 samples.

Results

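Chromatin accessibility was examined at Ciita, which encodes the transactivator of MHC class II genes, and at 6 genes of the class II pathway, Cd74, H2-Aa, H2-Ab1, H2-Eb1, H2-DMa and H2-DMb1. Members were all regions of the ATAC-seq table that overlapped the body of one of these 7 genes or the 20 kb on either side of it. This rule took 80 of the 121336 regions and used no accessibility value. Each region was listed under the gene whose body lay nearest, which gave 18 regions to Ciita, 10 to Cd74, 5 to H2-Aa, 10 to H2-Ab1, 9 to H2-Eb1, 18 to H2-DMa and 10 to H2-DMb1. Ciita lies on chromosome 16 of GRCm38 from 10480059 to 10528418, Cd74 on chromosome 18 from 60803848 to 60812652, and the other genes on chromosome 17 between 34119541 and 34316674. The windows also held promoters of neighbouring genes, among them Dexi and Clec16a beside Ciita, Brd2 beside H2-DMa, and the class II genes H2-DMb2, H2-Ob and H2-Eb2.

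There were 4 groups of 3 libraries each, all from sorted bone marrow cells of C57BL/6 littermates killed between 8 and 12 weeks of age. LSK cells (Lin- Sca-1+ c-Kit+) hold the stem cells and multipotent progenitors. GMPs (Lin- Sca-1- c-Kit+ Cd16/32+) are granulocyte-monocyte progenitors. Each cell type came from wild-type mice (WT-LSK, WT-GMP) and from UREd/d mice (URE-LSK, URE-GMP). In the latter the upstream regulatory element of Spi1 is deleted, every cell of the animal carries the deletion, and such mice develop acute myeloid leukemia later in life. Spi1 encodes the myeloid and B-lymphoid transcription factor PU.1. The comparisons ask how accessibility at the class II genes differs between the genotypes in each cell type, between the cell types in each genotype, and whether the genotype effect differs between the cell types.

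MHC class II molecules present peptides from endosomes to CD4+ T cells. H2-Aa and H2-Ab1 encode the chains of I-A, and H2-Eb1 the beta chain of I-E. Cd74, the invariant chain, guides newly made class II molecules to endosomes, and the H2-DM heterodimer (H2-DMa and H2-DMb1) exchanges the remnant of the invariant chain for peptide. Their promoters share the X and Y boxes, which the RFX complex, CREB and NF-Y bind. CIITA does not bind DNA itself but is recruited to these factors. Its own gene is read from separate promoters. Promoter I is used in dendritic cells and macrophages, promoter III in B cells and plasmacytoid dendritic cells, and promoter IV responds to interferon gamma. PU.1 is known to act at the dendritic-cell and lymphoid promoters of Ciita, often beside an IRF factor.

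Library totals ran from 23072701 to 62204826 counts, and 3 counts in a library corresponded to between 0.052 and 0.126 CPM (the count relative to the TMM-scaled library total). The labels were checked at the deleted element: the region with the deepest fall near Spi1 in LSK, chr2:91082790-91083700, had 39.4 ± 3.23 CPM in WT and 0.0618 ± 0.0733 CPM in URE among LSK libraries (mean ± SD, n = 3 throughout), and 43.8 ± 2.31 CPM in WT-GMP against 0.0305 ± 0.0266 CPM in URE-GMP. Promoter regions of GMP markers (Elane, Mpo, Prtn3, Ctsg) summed to between 21.4 and 44.6 CPM in LSK libraries and between 169 and 297 CPM in GMP libraries. Promoter regions of the B-cell genes Ebf1 and Cd79b summed to between 7.39 and 9.85 CPM in LSK libraries, 9.33 to 9.98 in WT-GMP and 7.2 to 8.47 in URE-GMP, where Cd79b was called lower (4.23 to 1.73 CPM). For dendritic cells, 5 of 7 marker genes had promoter regions (Xcr1 and Clec9a had none), and the sum over these ranged from 125 to 144 CPM in WT and 134 to 149 in URE among LSK libraries, and 143 to 175 against 136 to 137 among GMP libraries. Within that list, the Siglech promoter fell in LSK from a mean of 4.59 to 0.0452 CPM and in GMP from 6.54 to 0.295 CPM. Both Itgax promoter regions fell as well, in LSK from 1.51 to 0.108 and from 6.47 to 1.69 CPM, and so did 1 of 7 regions at Tcf4 (from 1.02 to 0.21 CPM). The other 9 of the list's 13 regions, at Batf3, Zbtb46 and Tcf4, were called in neither cell type, with log2 ratios between -0.81 and 0.48 in LSK. The monocyte list (5 of 5 genes) ranged from 27.2 to 34.8 CPM in WT and 7.23 to 12.2 in URE among LSK libraries, and 75.3 to 91.6 against 67.7 to 74 among GMP libraries. T-cell and erythroid lists had promoter regions at 1 of 4 and 0 of 4 genes, and the LSK list summed to 205 to 243 CPM in LSK and 155 to 177 CPM in GMP libraries. In these bulk samples, fewer cells of a type and less open chromatin per cell cannot be told apart, and the part of dendritic, B or monocytic cells in the values below was not tested.

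The reference sequence at 8 places is shown because the results turn on them. All are from GRCm38, read 5′ to 3′, and capitals mark exact matches to the letters searched on either strand. Among the Ciita sequences are 150 bases at promoter III (chr16:10488028-10488177, plus strand), which end where a transcript of the full GENCODE annotation starts. They hold GGAANNGAA, the letters of a PU.1-IRF composite element, 103 bases before that start and 204 before the start in the basic annotation (10488279). The 150 bases at promoter IV (chr16:10489596-10489745, plus strand) likewise end at a start of the full annotation. They hold TTCNNNGAA (STAT) and GAAANNGAA (IRF), 127 and 36 bases before that start and 162 and 71 before the first basic-annotation start there (10489781). The third stretch surrounds the PU.1 letters GAGGAAGT in a region 18.6 kb upstream of the gene (chr16:10461309-10461436, plus strand).
Ciita promoter III: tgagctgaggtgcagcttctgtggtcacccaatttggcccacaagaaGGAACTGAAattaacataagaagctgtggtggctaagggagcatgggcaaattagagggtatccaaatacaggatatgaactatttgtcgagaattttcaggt
Ciita promoter IV: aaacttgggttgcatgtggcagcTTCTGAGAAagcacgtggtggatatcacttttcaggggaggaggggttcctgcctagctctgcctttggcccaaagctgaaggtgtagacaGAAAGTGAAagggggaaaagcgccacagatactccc
Ciita, 18.6 kb upstream: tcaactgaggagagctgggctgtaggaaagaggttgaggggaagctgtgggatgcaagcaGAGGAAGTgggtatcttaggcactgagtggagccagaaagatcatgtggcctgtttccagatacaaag

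For the class II cluster, capitals mark the X box letters AGCAACAG, the Y box letters CTGATTGG and, in the first sequence, also TTCNNNGAA and the PU.1 letters. That first sequence lies between H2-Aa and H2-Eb1 (chr17:34293504-34293686, plus strand) and holds the STAT letters, the X box letters on the opposite strand and the PU.1 letters on the opposite strand, in that order. The second, chr17:34261670-34261738 on the minus strand, lies upstream of H2-Ab1 and has X and Y box letters on the same strand. The last 3 are the 120 bases before the annotated starts of H2-Ab1 (chr17:34263089-34263208, plus strand), H2-Aa (chr17:34287824-34287943, minus strand) and H2-Eb1 (chr17:34305747-34305866, plus strand), where the Y box letters begin 30, 51 and 62 bases before the start. No marked match overlapped a match of another motif.
H2-Aa to H2-Eb1, intergenic: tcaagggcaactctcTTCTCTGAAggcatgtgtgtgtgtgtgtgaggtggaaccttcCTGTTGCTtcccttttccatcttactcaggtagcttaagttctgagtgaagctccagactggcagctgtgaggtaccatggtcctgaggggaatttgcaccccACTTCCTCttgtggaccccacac
H2-Ab1, upstream: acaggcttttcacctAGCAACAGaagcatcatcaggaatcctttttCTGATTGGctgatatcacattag
H2-Ab1 promoter: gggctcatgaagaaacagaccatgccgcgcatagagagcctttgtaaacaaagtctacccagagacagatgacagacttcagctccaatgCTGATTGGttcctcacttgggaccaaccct
H2-Aa promoter: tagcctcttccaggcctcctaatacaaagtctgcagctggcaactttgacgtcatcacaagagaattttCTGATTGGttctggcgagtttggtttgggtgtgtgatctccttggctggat
H2-Eb1 promoter: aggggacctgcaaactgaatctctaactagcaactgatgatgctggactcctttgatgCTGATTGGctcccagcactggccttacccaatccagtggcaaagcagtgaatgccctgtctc

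In UREd/d cells, more of the regions around the class II genes were called lower than higher, among them Ciita promoter III and the Cd74 promoter, while the regions at the starts of H2-Ab1, H2-Aa and H2-Eb1 were called in neither cell type. A region was called when the edgeR adjusted p was under 0.05 and the absolute log2 ratio over 1. In LSK cells 26 of 80 regions were called. In URE 24 of them were lower and 2 higher, beside 37.5% called, 23.9% called lower and 13.6% called higher over all 121336 regions. The member share was thus 32.5% in all, 30.0% lower and 2.5% higher. In GMPs 33 of 80 were called (41.2%), 24 lower (30.0%) and 9 higher (11.2%), beside 39.7%, 24.1% and 15.6% of all regions. The shares called lower were only a little above those of the whole table, while the share called higher in LSK was well below it. Among the 60 members at no promoter, 31.7% were called lower in each cell type, beside 27.0% of all regions of the table at no promoter. The rules differed slightly, since starts of Gm-numbered genes counted as promoters in the whole table but not among the members. The median log2 ratio over the 80 regions was -0.15 in LSK and -0.25 in GMP, against 0.14 and 0.06 over all regions. With loess offsets the LSK calls at members were 21 lower and 6 higher, while LSK calls over all regions went from 45536 to 48923. With GC content offsets the members had 18 lower and 7 higher, and 51463 regions were called over the whole table. These whole-table calls were not split by direction, so whether the member share called higher stayed below that of the table was not tested. In GMP, loess offsets gave 33 member calls and GC content offsets 31, beside 47771 and 50717 over all regions.

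The LSK and GMP comparisons share no library. Of the 80 regions, 17 were called lower in both cell types and 2 higher in both, and none was called in opposite directions. A further 7 were called lower in LSK alone, 7 lower in GMP alone and 7 higher in GMP alone, while 40 were called in neither. These joint patterns were counted for the members only. Whether their shares differ from those over all regions of the table was not tested. By gene, Cd74 had 7 of 10 regions lower in LSK and 5 of 10 in GMP with none higher, Ciita 5 of 18 lower and 1 higher in LSK and 6 lower and 4 higher in GMP, and H2-DMb1 3 of 10 and 5 of 10 lower with 1 higher in each. The counts were smaller at H2-Aa (1 and 2 of 5 lower), H2-Ab1 (3 and 2 of 10 lower), H2-Eb1 (1 of 9 lower in each, 3 higher in GMP) and H2-DMa (4 and 3 of 18 lower, 1 higher in GMP).

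**Figure D1:**
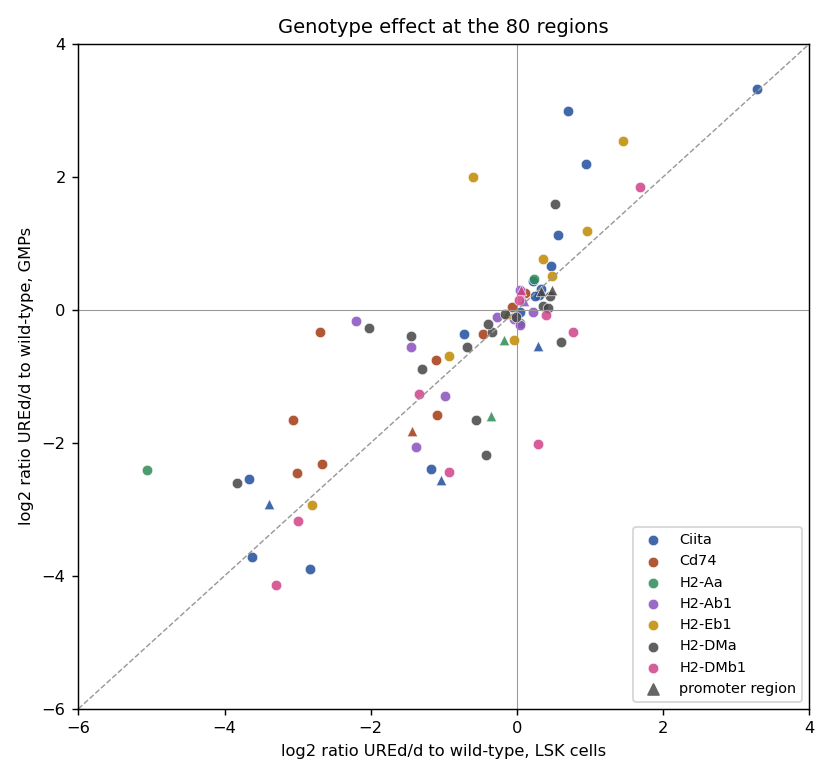
Log2 ratio of UREd/d to wild-type accessibility in LSK cells (x axis) and in GMPs (y axis) for the 80 regions, coloured by gene, with triangles for promoter regions of the 7 genes and a dashed line where both ratios are equal. The 17 regions called lower in both cell types lie in the lower left, and the region between H2-Aa and H2-Eb1 sits farthest left at -5.06 in LSK.

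The Ciita promoters differed from each other. The region at promoter III, chr16:10487927-10488232, was much less accessible in UREd/d cells. Its 3 WT-LSK libraries had 4.62, 5.06 and 3.36 CPM and the 3 URE-LSK libraries 0.309, 0.251 and 0.641 CPM. In GMPs the values were 6.11, 6.38 and 7.14 CPM in WT and 0.624, 1.58 and 0.315 CPM in URE. Genotypes overlapped in neither cell type, and UREd/d replicate 2 of the GMPs was the highest of the URE libraries. The log2 ratio was -3.39 ± 0.44 in LSK (± SE, edgeR adjusted p = 8.05e-06) and -2.91 ± 0.40 in GMP (edgeR adjusted p = 1.43e-05). This region lies in the intron of the longer Ciita transcripts, ends 47 bp before the start of the basic-annotation transcript, and holds the composite PU.1-IRF letters shown above.

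The region at the promoter IV starts did not follow it. Region chr16:10489562-10489918 spans the promoter IV starts and their first exon and had 4.33, 4.04 and 5.09 CPM in WT and 6.07, 5.08 and 5.4 CPM in URE among LSK libraries, so that the ranges overlapped (log2 ratio 0.29 ± 0.17, edgeR adjusted p = 0.154). In WT-GMP it had 2.38, 2.12 and 2.03 CPM and in URE-GMP 1.42, 1.53 and 1.53 CPM, which did not overlap but differed by less than the 2-fold threshold (log2 ratio -0.54 ± 0.19, edgeR adjusted p = 0.0202). The order of the 4 group means was URE-LSK, WT-LSK, WT-GMP and URE-GMP, in which only the first pair had overlapping values. Between both lay the weak region chr16:10489180-10489387, within 500 bp of a promoter IV start but not of the promoter III start. It had 0.598 ± 0.127 CPM in WT and 0.288 ± 0.117 in URE among LSK libraries, and 1.47 ± 0.477 against 0.24 ± 0.0714 among GMP libraries. This weak region fell in GMP (log2 ratio -2.55 ± 0.39, edgeR adjusted p = 4.08e-05). Its LSK difference (log2 ratio -1.04 ± 0.42, edgeR adjusted p = 0.0437) was lost with DESeq2 (-1.0, DESeq2 adjusted p = 0.0612), with RLE size factors (-0.99), with GC content offsets (-0.80), without WT-LSK replicate 1 (-1.11, edgeR adjusted p = 0.0601), without WT-LSK replicate 2 (-0.95), without URE-LSK replicate 1 (-0.81), without URE-LSK replicate 3 (-0.96) or without URE-GMP replicate 1 (-1.04, edgeR adjusted p = 0.0564), and had the opposite sign with loess offsets (0.25). Promoter I had no region: its annotated starts at 10480059 and 10480164 lay 3840 and 3945 bp from the nearest one.

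Upstream of Ciita, both intergenic regions fell in both cell types, as promoter III did. The far region chr16:10461220-10461668, which carries the PU.1 letters and RUNX letters (AACCACA, at 2 places), had 4.91, 6.12 and 5.79 CPM in WT-LSK against 0.761, 0.921 and 0.683 in URE-LSK, and 3.64, 5.6 and 6.22 CPM in WT-GMP against 0.366, 0.312 and 0.363 in URE-GMP. The log2 ratio was -2.83 ± 0.24 in LSK (edgeR adjusted p = 8.76e-08) and -3.90 ± 0.26 in GMP (edgeR adjusted p = 2.38e-08), with every URE library below every WT library of its cell type. The second, chr16:10475967-10476219, centred 4.0 kb before the first start, went from 2.79 ± 0.225 to 0.224 ± 0.0104 CPM in LSK (log2 ratio -3.62 ± 0.33, edgeR adjusted p = 1.89e-07) and from 1.72 ± 0.443 to 0.128 ± 0.0565 CPM in GMP (log2 ratio -3.72 ± 0.35, edgeR adjusted p = 4.58e-07). Inside the gene, the intronic region chr16:10516040-10516533 was largely an LSK feature of wild-type mice, with 6.72, 3.96 and 3.8 CPM in WT-LSK and 0.711, 0.839 and 1.2 in WT-GMP. It fell to 0.382 ± 0.0843 CPM in URE-LSK (log2 ratio -3.66 ± 0.32, edgeR adjusted p = 1.31e-07) and 0.154 ± 0.035 CPM in URE-GMP (log2 ratio -2.54 ± 0.38, edgeR adjusted p = 2.91e-05).

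Downstream of the Ciita body, 3 neighbouring regions in an intron of Dexi were called higher in UREd/d cells, the first in both cell types and the others in GMP. Region chr16:10531850-10532055 rose from 0.154 ± 0.0518 to 1.45 ± 0.265 CPM in LSK (log2 ratio 3.29 ± 0.38, edgeR adjusted p = 1.98e-06) and from 0.143 ± 0.0575 to 1.36 ± 0.148 CPM in GMP (log2 ratio 3.33 ± 0.38, edgeR adjusted p = 2.54e-06). The next, chr16:10532325-10532558, had 0.157, 0.122 and 0.281 CPM in WT and 0.238, 0.251 and 0.47 in URE among LSK libraries, and 0.251, 0.357 and 0.207 against 2.56, 2.38 and 1.72 among GMP libraries, so it stood out in URE-GMP and rose there (log2 ratio 3.0 ± 0.38, edgeR adjusted p = 6.45e-06). The third, chr16:10533126-10533340, rose in GMP from 0.266 ± 0.0634 to 1.19 ± 0.103 CPM (log2 ratio 2.20 ± 0.34, edgeR adjusted p = 4.82e-05). At the 3′ end of Ciita, chr16:10524740-10525240 also rose in GMP, from 2.9 ± 1.2 to 6.44 ± 1.41 CPM (log2 ratio 1.12 ± 0.24, edgeR adjusted p = 0.000753), a call that ended with library-size scaling (1.0), without WT-GMP replicate 1 (0.87) or without URE-GMP replicate 3 (0.94). A region in an intron of Clec16a, chr16:10546436-10546674, fell in GMP from 2.14 ± 0.512 to 0.388 ± 0.278 CPM (log2 ratio -2.39 ± 0.48, edgeR adjusted p = 0.000497), and this call ended with loess offsets (-1.12, edgeR adjusted p = 0.0505). The promoters of the neighbours Dexi and Clec16a differed between genotypes by no more than 0.30 on the log2 scale.

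**Figure D2:**
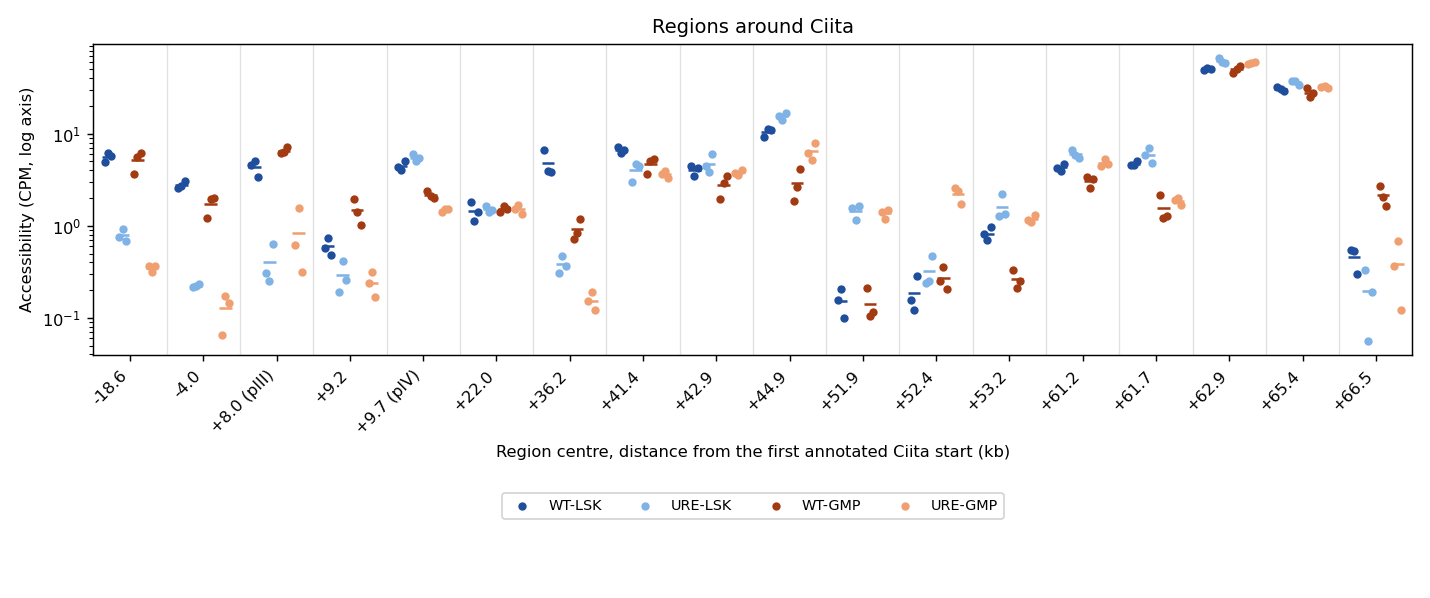
Accessibility in CPM (log axis) at the 18 regions around Ciita in genomic order, with the distance of each centre from the first annotated start in kb on the x axis, 3 points per group for the libraries and a bar for the mean. The URE libraries lie below all WT libraries at -18.6, -4.0, +8.0 (promoter III), +9.2 and +36.2 kb in both cell types, while promoter IV (+9.7 kb) shows little genotype difference and +51.9 kb shows a rise.

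The regions at the starts of the classical class II genes remained accessible in UREd/d cells. At the H2-Ab1 promoter, chr17:34263031-34263486, the libraries had 17.5, 15.3 and 17.5 CPM in WT and 20.5, 18.1 and 15.5 CPM in URE among LSK libraries. In GMPs they had 11.6, 9.04 and 9.4 CPM in WT and 10.6, 11.4 and 10.9 CPM in URE. The genotypes overlapped in both cell types, and the log2 ratio was 0.10 ± 0.14 in LSK (edgeR adjusted p = 0.528) and 0.14 ± 0.14 in GMP (edgeR adjusted p = 0.389). The H2-Eb1 promoter, chr17:34305617-34305968, had 14, 15 and 15.3 CPM in WT and 16.4, 12 and 11.8 in URE among LSK libraries, and 7.91, 5.67 and 6.89 against 6.31, 6.3 and 6.88 among GMP libraries. Its ranges overlapped as well, with ratios of -0.14 ± 0.16 (edgeR adjusted p = 0.467) and -0.06 ± 0.16 (edgeR adjusted p = 0.751). The H2-Aa promoter, chr17:34287739-34288079, overlapped in LSK, with 13.7, 13.4 and 12.7 against 12, 13.1 and 10.1 CPM. In GMP, 8.45, 6.25 and 7.28 CPM in WT stood against 5.38, 5.29 and 5.28 CPM in URE, a small difference that passed the adjusted p but not the 2-fold threshold (log2 ratio -0.46 ± 0.15, edgeR adjusted p = 0.0165).

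The promoters of the peptide-exchange genes did not reach the 2-fold threshold either. The H2-DMa start region chr17:34135262-34136121 had 41.7 ± 3.04 CPM in WT and 52.4 ± 4.38 in URE among LSK libraries, and 41.5 ± 5.2 against 50.6 ± 0.976 among GMP libraries (log2 ratio 0.33 ± 0.10 in LSK and 0.28 ± 0.10 in GMP, edgeR adjusted p = 0.00814 and 0.0168). An earlier H2-DMa start falls in chr17:34120808-34123041, a wide region shared with the Brd2 promoters, with ratios of 0.48 ± 0.10 and 0.30 ± 0.10 (edgeR adjusted p = 0.00102 and 0.0204). At H2-DMb1, chr17:34152787-34153450 had 12.7 ± 1.07 CPM in WT and 13.2 ± 1.28 in URE among LSK libraries, and 7.89 ± 1.07 against 9.66 ± 0.709 among GMP libraries. Its ratios were 0.06 ± 0.14 (edgeR adjusted p = 0.719) and 0.30 ± 0.14 (edgeR adjusted p = 0.0854). H2-DMb1 and its neighbour H2-DMb2 are near-identical copies. How reads that match both were handled is not given in the sources used here, so values at either gene are uncertain.

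Cd74 was the exception among the pathway promoters. Its promoter region, chr18:60803536-60803892, had 8.24, 4.94 and 7.42 CPM in WT and 3.02, 2.51 and 2.14 CPM in URE among LSK libraries. In GMPs it had 3.39, 3.15 and 3.02 CPM in WT and 0.883, 1.06 and 0.727 CPM in URE. All URE libraries lay below all WT libraries of the same cell type, and the region fell by 1.43 ± 0.22 on the log2 scale in LSK (edgeR adjusted p = 4.18e-05) and by 1.82 ± 0.24 in GMP (edgeR adjusted p = 9.69e-06). Of the 11 promoter regions of the 7 genes, 3 were called lower in LSK: Ciita promoter III, the weak Ciita region near the promoter IV starts, and Cd74. In GMP 4 were called lower, where a second H2-Aa promoter region, chr17:34287064-34287353 in an intron, joined them. None was called higher in either. Of all 19118 promoter regions, 7.68% were called lower in LSK and 8.25% in GMP.

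**Figure D3:**
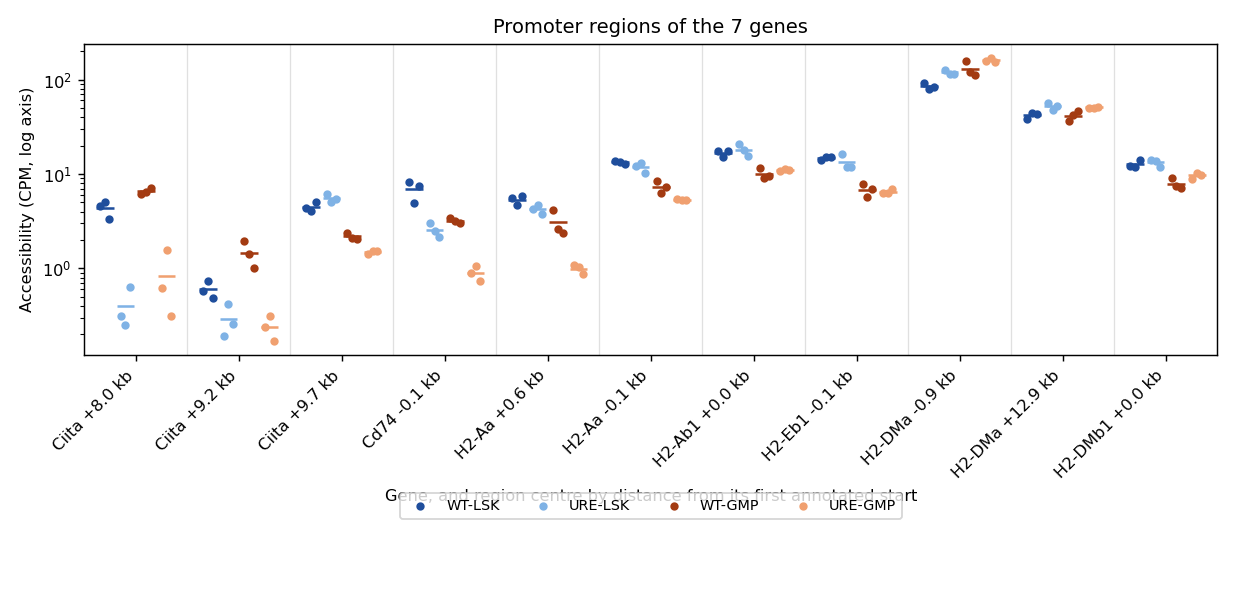
Accessibility in CPM (log axis) at the 11 promoter regions of the 7 genes, labelled by gene and by the distance of the region centre from the gene's first annotated start, with 3 library points and a mean bar per group. Ciita +8.0 kb (promoter III) and Cd74 -0.1 kb drop in both URE groups, whereas the H2-Ab1 promoter has means of 16.8 and 18 CPM in WT-LSK and URE-LSK.

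The deepest genotype difference of all 80 regions in LSK lay between H2-Aa and H2-Eb1, 5.9 kb upstream of the H2-Aa start. Region chr17:34293471-34293962 had 24.4, 25.6 and 19.7 CPM in WT and 0.5, 1.06 and 0.555 CPM in URE among LSK libraries. In GMPs it had 7.2, 7.24 and 6.84 CPM in WT and 1.33, 1.84 and 0.775 CPM in URE. The genotypes were far apart in both cell types, and the log2 ratio was -5.06 ± 0.30 in LSK (edgeR adjusted p = 4.97e-09) and -2.41 ± 0.27 in GMP (edgeR adjusted p = 2.02e-06). It is the intergenic sequence shown above with STAT, X box and PU.1 letters. Its neighbours on either side were called in neither cell type: chr17:34291646-34291953 had 10.5 ± 0.666 and 12.3 ± 1.4 CPM in WT-LSK and URE-LSK, and chr17:34296063-34296427, singled out after its values were seen, had 6.21 ± 0.57 and 6.39 ± 0.544 CPM.

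Around H2-Ab1, the losses lay upstream. At chr17:34257587-34258000, 5.4 kb before the start, the LSK mean went from 18.3 ± 0.659 to 9.26 ± 1.93 CPM and the GMP mean from 12.8 ± 0.511 to 5.23 ± 1.44 CPM. The region was called in GMP (log2 ratio -1.29 ± 0.19, edgeR adjusted p = 2.56e-05), a call that ended with GC content offsets (-0.86). Region chr17:34260604-34260829, 2.5 kb before the start, fell in LSK (log2 ratio -1.45 ± 0.31, edgeR adjusted p = 0.000893), which loess offsets ended (-0.65, edgeR adjusted p = 0.0868). The region that holds the X and Y box letters shown above, chr17:34261543-34261863, had 5.45 ± 0.832 CPM in WT and 4.55 ± 0.698 in URE among LSK libraries, and 3.07 ± 0.387 against 2.81 ± 0.475 among GMP libraries, and was called in neither cell type. Farther upstream, the promoter of H2-Ob, which encodes a chain of the H2-DM inhibitor H2-O, fell from 23.1 ± 0.647 to 8.88 ± 3.15 CPM in LSK (log2 ratio -1.38 ± 0.24, edgeR adjusted p = 0.000131) and from 17.9 ± 2.27 to 4.24 ± 1.58 CPM in GMP (log2 ratio -2.07 ± 0.25, edgeR adjusted p = 3.98e-06) at chr17:34239418-34240384. The LSK call there ended with GC content offsets (-0.93). Each of these 4 regions was singled out after its values were seen, as were the regions of Cd74 described below other than its promoter, the region at -8.6 kb and the one in Tcof1.

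At H2-Eb1, 1 intronic region fell in both cell types and 3 regions in introns of H2-Eb2 rose in GMPs. Region chr17:34312323-34312575 was weak, with 0.63, 1.14 and 0.523 CPM in WT and 0.0714, 0.0558 and 0.171 in URE among LSK libraries, and 1.84, 2.62 and 1.45 against 0.388, 0.312 and 0.0485 among GMP libraries (log2 ratio -2.80 ± 0.61, edgeR adjusted p = 0.00101 in LSK, and log2 ratio -2.94 ± 0.50, edgeR adjusted p = 0.000102 in GMP). In H2-Eb2, chr17:34335986-34336279 had 0.837, 1.39 and 0.991 CPM in WT-GMP and 4.22, 4.91 and 3.92 CPM in URE-GMP (log2 ratio 2.0 ± 0.27, edgeR adjusted p = 1.45e-05), against LSK values between 0.0641 and 0.286 CPM. Its neighbour chr17:34336404-34336728 rose in GMP from 0.74 ± 0.443 to 4.25 ± 0.677 CPM (log2 ratio 2.54 ± 0.39, edgeR adjusted p = 3.59e-05). The third, chr17:34329693-34330288, rose in GMP from 5.11 ± 1.75 to 11.8 ± 2.91 CPM (log2 ratio 1.19 ± 0.28, edgeR adjusted p = 0.00151), a call that ended without WT-GMP replicate 1 (0.93) or without URE-GMP replicate 3 (0.99).

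**Figure D4:**
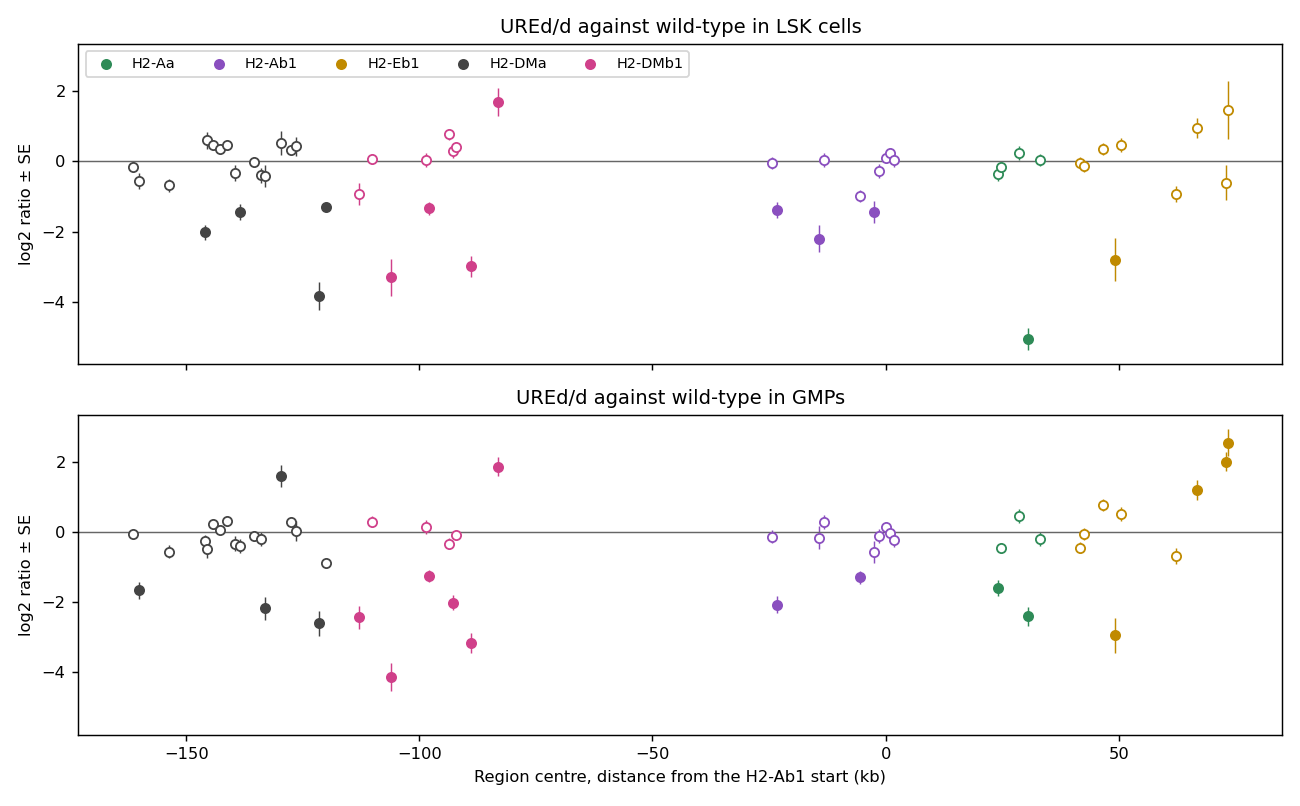
Log2 ratio of UREd/d to wild-type with SE bars at the 52 chromosome 17 regions, by distance of the region centre from the H2-Ab1 start in kb, LSK cells above and GMPs below; filled points were called, open points were not. The start regions of H2-Ab1 and H2-Eb1 sit near 0 in both panels. The H2-Aa start region is near 0 in LSK and somewhat lower in GMP, where the H2-Aa promoter region in an intron was called lower. The intergenic region upstream of H2-Aa is the lowest LSK point at -5.06.

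Away from their promoters, the H2-DM genes had some of the steepest losses. Region chr17:34156991-34157370, in a coding exon of H2-DMb1, had 6.61, 8.67 and 6.71 CPM in WT-GMP and 0.28, 0.763 and 0.145 CPM in URE-GMP. It was lower in LSK, with 1.13, 1.14 and 0.724 CPM in WT and 0.0952, 0.14 and 0.0641 CPM in URE, and fell in GMP by 4.13 ± 0.39 and in LSK by 3.30 ± 0.54 on the log2 scale (edgeR adjusted p = 4.41e-07 and 6.99e-05). Intergenic region chr17:34141518-34141775, between H2-DMa and H2-DMb2, fell from 4.36 ± 0.149 to 0.316 ± 0.259 CPM in LSK (log2 ratio -3.83 ± 0.39, edgeR adjusted p = 6.37e-07) and from 3.63 ± 0.772 to 0.588 ± 0.214 CPM in GMP (log2 ratio -2.61 ± 0.35, edgeR adjusted p = 1.30e-05). Downstream of H2-DMb1, chr17:34174100-34174560 fell in LSK (log2 ratio -2.99 ± 0.29, edgeR adjusted p = 2.95e-07) and in GMP (log2 ratio -3.17 ± 0.28, edgeR adjusted p = 2.24e-07). In the other direction, chr17:34180009-34180290 rose from 0.154 ± 0.0295 to 0.516 ± 0.119 CPM in LSK (log2 ratio 1.69 ± 0.39, edgeR adjusted p = 0.00159) and from 1.13 ± 0.187 to 4.12 ± 1.15 CPM in GMP (log2 ratio 1.86 ± 0.27, edgeR adjusted p = 2.30e-05). The promoter of H2-DMb2 fell in LSK, from 41.3 ± 4.2 to 16.7 ± 0.17 CPM (log2 ratio -1.30 ± 0.11, edgeR adjusted p = 1.07e-07), and in GMP stood at 59.3 ± 6.1 against 31.9 ± 4.49 CPM without reaching 2-fold (log2 ratio -0.89 ± 0.11, edgeR adjusted p = 4.92e-06). Its LSK call ended with GC content offsets (-0.94). The H2-DMb2 promoter was also singled out after its values were seen.

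Further regions of the H2-DM windows were called, most of them in LSK alone or in GMP alone. The regions at chr17:34117106-34117382, chr17:34124633-34124977, chr17:34133366-34133597 and chr17:34165064-34165612 fell outside the rule for named regions and were singled out after their values were seen. In LSK, chr17:34117106-34117382 in an exon of Brd2, which encodes a bromodomain protein, fell from 5.09 ± 0.359 to 1.26 ± 0.175 CPM (log2 ratio -2.02 ± 0.21, edgeR adjusted p = 7.62e-07), and chr17:34124633-34124977 in an intron of H2-DMa fell from 6.52 ± 1.46 to 2.42 ± 0.719 CPM (log2 ratio -1.44 ± 0.23, edgeR adjusted p = 5.45e-05). In GMPs, chr17:34130018-34130233 in another H2-DMa intron fell from 1.86 ± 0.309 to 0.402 ± 0.0949 CPM (log2 ratio -2.18 ± 0.32, edgeR adjusted p = 2.54e-05), against 0.979 ± 0.177 and 0.748 ± 0.211 CPM in WT-LSK and URE-LSK. Region chr17:34150205-34150467, in an intron of H2-DMb2 before the H2-DMb1 start, had 2.13, 3.36 and 3.06 CPM in WT-GMP and 0.474, 0.642 and 0.46 CPM in URE-GMP and fell there (log2 ratio -2.44 ± 0.34, edgeR adjusted p = 1.53e-05). Region chr17:34102900-34103282, upstream of H2-DMa, also fell in GMP (log2 ratio -1.66 ± 0.24, edgeR adjusted p = 2.69e-05), and chr17:34133366-34133597 in an H2-DMa intron rose in GMP from 0.761 ± 0.19 to 2.34 ± 0.432 CPM (log2 ratio 1.59 ± 0.32, edgeR adjusted p = 0.000473). Downstream of H2-DMb1, chr17:34165064-34165612, the only H2-DM region with the PU.1 letters, fell from 8.13 ± 1.31 to 3.21 ± 0.297 CPM in LSK (log2 ratio -1.34 ± 0.17, edgeR adjusted p = 7.93e-06) and from 8.27 ± 0.0609 to 3.43 ± 0.41 CPM in GMP (log2 ratio -1.26 ± 0.17, edgeR adjusted p = 1.42e-05), and both calls ended with GC content offsets (-0.93 in each). The most counted regions near H2-DMa, H2-DMb1 and H2-Ab1 outside their own promoters were called in neither cell type: chr17:34117848-34120044 at Brd2 had 73.6 ± 4.87 and 101 ± 6.75 CPM in WT-LSK and URE-LSK, chr17:34170617-34171697 had 30.9 ± 0.589 and 40.8 ± 2.84 CPM, and chr17:34264554-34265463 in a coding exon of H2-Ab1 had 12.3 ± 1.35 and 12.6 ± 0.562 CPM.

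Cd74 was called lower at more of its regions than any of the other 6 genes in LSK, at 7 of 10. The most accessible region of the gene body, chr18:60807069-60807682 in an intron, had 22.4, 21.4 and 19.6 CPM in WT and 2.4, 3.35 and 1.86 CPM in URE among LSK libraries. In GMPs it had 16.9, 16.1 and 14.4 CPM in WT and 5.12, 7.42 and 2.28 CPM in URE. URE-GMP libraries spread between 2.28 and 7.42 CPM but stayed below all WT-GMP libraries, and the log2 ratio was -3.07 ± 0.31 in LSK (edgeR adjusted p = 5.73e-07) and -1.66 ± 0.29 in GMP (edgeR adjusted p = 0.000139). Upstream, chr18:60789261-60789606, which holds the PU.1 letters, fell from 7.04 ± 0.408 to 0.882 ± 0.363 CPM in LSK (log2 ratio -3.01 ± 0.28, edgeR adjusted p = 2.03e-07) and from 5.27 ± 0.878 to 0.952 ± 0.277 CPM in GMP (log2 ratio -2.46 ± 0.27, edgeR adjusted p = 1.68e-06). Region chr18:60792004-60792307 fell in LSK (log2 ratio -2.67 ± 0.70, edgeR adjusted p = 0.0043), a call that loess offsets ended (-1.45, edgeR adjusted p = 0.0818), and in GMP (log2 ratio -2.32 ± 0.53, edgeR adjusted p = 0.00132). Of the other intronic regions, chr18:60805729-60806070 fell in LSK (log2 ratio -1.10 ± 0.20, edgeR adjusted p = 0.000226) and chr18:60806598-60806797 in LSK (log2 ratio -1.10 ± 0.32, edgeR adjusted p = 0.00831) and GMP (log2 ratio -1.59 ± 0.33, edgeR adjusted p = 0.000661). Both of these LSK calls ended with GC content offsets (-0.66 and -0.63), and the second also with loess offsets (-0.95) or without URE-LSK replicate 1 (-0.98). Summed over the 10 regions, the Cd74 locus had 120.3 ± 2.74 CPM in WT and 75.9 ± 9.42 in URE among LSK libraries, and 61.6 ± 5.33 against 34 ± 5.73 among GMP libraries.

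**Figure D5:**
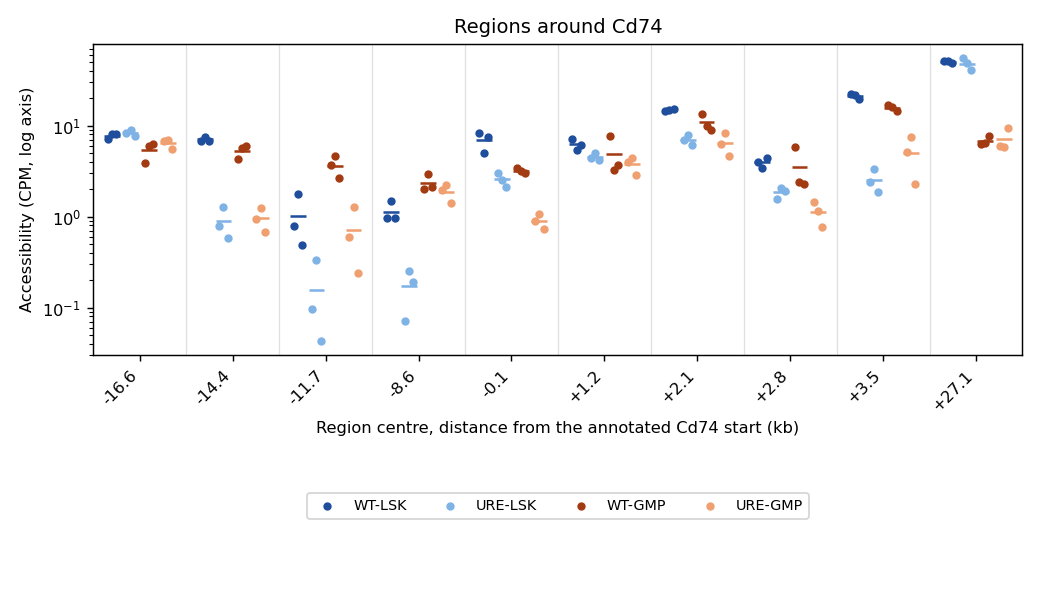
Accessibility in CPM (log axis) at the 10 regions around Cd74, by distance of the region centre from the annotated start in kb, with 3 library points and a mean bar per group. URE libraries lie below the WT libraries of their cell type at -14.4, -11.7, -0.1, +2.1, +2.8 and +3.5 kb, while the region at +27.1 kb, in an intron of Tcof1, separates LSK from GMP in both genotypes.

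The promoters of the classical class II genes and of Cd74, and the region at the Ciita promoter IV starts, had lower means in GMPs than in LSK cells. Over the 80 regions, 22 were called between WT-GMP and WT-LSK (27.5%), 10 higher and 12 lower in GMP, beside 37.8%, 21% and 16.8% of all regions. In UREd/d mice 32 were called (40.0%), 12 higher and 20 lower, beside 49.1%, 27.6% and 21.6%. The median log2 ratio of the 80 regions was -0.17 in each, against -0.01 and 0.03 over all regions. Both comparisons share their libraries with the genotype comparisons. H2-Eb1 fell in both genotypes (log2 ratio -1.12 ± 0.16, edgeR adjusted p = 3.16e-05 in WT, and -1.04 ± 0.16 with edgeR adjusted p = 2.82e-05 in URE), H2-Aa fell in URE (log2 ratio -1.14 ± 0.15, edgeR adjusted p = 5.56e-06) and stood at -0.86 in WT without reaching 2-fold (edgeR adjusted p = 0.000169), and H2-Ab1 stood at -0.75 and -0.72 (edgeR adjusted p = 0.000239 and 0.000207). Ciita promoter IV fell in WT (log2 ratio -1.05 ± 0.18, edgeR adjusted p = 0.000132) and in URE (log2 ratio -1.89 ± 0.18, edgeR adjusted p = 2.05e-07), and the Cd74 promoter fell in both (log2 ratio -1.12 ± 0.22, edgeR adjusted p = 0.000431 in WT, and -1.51 ± 0.24 with edgeR adjusted p = 3.77e-05 in URE). The H2-Eb1 call in URE was lost with DESeq2 (-0.99), RLE size factors (-0.98), loess offsets (-0.92) or without URE-LSK replicate 1 (-0.88). With loess offsets the WT promoter IV call (-0.94) and the WT Cd74 call (-1.0) were lost too, and with GC content offsets the former (-0.89).

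The step between cell types was not uniform. The intergenic region upstream of H2-Aa dropped from LSK to GMP in wild-type mice (log2 ratio -1.71 ± 0.25, edgeR adjusted p = 2.76e-05), as did the Ciita intronic region chr16:10516040-10516533 (log2 ratio -2.37 ± 0.29, edgeR adjusted p = 7.00e-06). In the opposite direction, the H2-DMb1 exon region chr17:34156991-34157370 was higher in WT-GMP (log2 ratio 2.90 ± 0.37, edgeR adjusted p = 8.24e-06), and so was chr17:34180009-34180290 (log2 ratio 2.82 ± 0.36, edgeR adjusted p = 1.05e-05). The Tcof1 intron region beside Cd74, chr18:60830422-60831470, had 51.4, 50.8 and 48.8 CPM in WT and 55.1, 48.3 and 40.4 in URE among LSK libraries, and 6.28, 6.5 and 7.63 against 6.01, 5.86 and 9.3 among GMP libraries. It separated the cell types in WT (log2 ratio -2.88 ± 0.16, edgeR adjusted p = 3.66e-08) and in URE (log2 ratio -2.77 ± 0.16, edgeR adjusted p = 4.31e-09) and hardly differed between genotypes. The pair of H2-Eb2 intron regions was near the counting floor in LSK and higher in GMP, most in URE-GMP: chr17:34335986-34336279 rose in WT (log2 ratio 2.63 ± 0.37, edgeR adjusted p = 2.22e-05) and URE (log2 ratio 5.23 ± 0.36, edgeR adjusted p = 1.13e-08), and chr17:34336404-34336728, with 1 or 2 counts in each WT-LSK library, had 0.0514 ± 0.0307 CPM there and 0.74 ± 0.443 CPM in WT-GMP.

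The genotype effect differed between the cell types at 16 of the 80 regions (20%), with 8 interaction values above 0 and 8 below, beside 14%, 8.96% and 5.03% of all regions. Above 0, where the loss was smaller in GMP than in LSK or the gain larger, was the intergenic region upstream of H2-Aa (interaction 2.65 ± 0.39, edgeR adjusted p = 0.000368). The H2-Ob exon region chr17:34248765-34249095 was the same kind: it fell in LSK from 3.37 ± 0.59 to 0.721 ± 0.46 CPM and had 6.28 ± 1.51 against 5.57 ± 1.36 CPM in GMP (interaction 2.04 ± 0.50, edgeR adjusted p = 0.0112). Cd74 gave another, chr18:60795166-60795409, with 0.971, 1.47 and 0.965 CPM in WT and 0.0714, 0.251 and 0.192 CPM in URE among LSK libraries but 2.01, 2.94 and 2.1 against 1.94, 2.24 and 1.41 CPM among GMP libraries (interaction 2.36 ± 0.50, edgeR adjusted p = 0.00468). Below 0, where the loss was larger in GMP, was chr17:34170240-34170520 downstream of H2-DMb1, with 7.87, 6.65 and 7.4 CPM in WT and 9.47, 8.96 and 8.29 in URE among LSK libraries, and 7.07, 4.26 and 7.05 against 1.36, 1.74 and 1.41 among GMP libraries (interaction -2.30 ± 0.29, edgeR adjusted p = 0.000106). The H2-Aa intron region chr17:34287064-34287353 went from 3.07 ± 0.973 to 0.991 ± 0.106 CPM in GMP (log2 ratio -1.60 ± 0.23, edgeR adjusted p = 2.69e-05), against 5.36 ± 0.588 and 4.22 ± 0.476 CPM in LSK (interaction -1.25 ± 0.32, edgeR adjusted p = 0.0129), and without WT-GMP replicate 1 the interaction was no longer called (-0.96). The median of the 80 interaction values was 0.06, against 0.01 over all regions. Leaving out URE-GMP replicate 1 brought the interaction count to 10, and glmTreat, which tests against a 2-fold change, to 2. Over all regions, the same settings brought it from 16975 to 13054 and to 3703.

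Motif letters were counted in all regions, whose median length was 322 bp against 328 bp for the members. The PU.1 letters GAGGAAGT occurred in 5 members (6.25%) and 10.47% of all regions, and the composite GGAANNGAA in 20 (25%) and 14.05%. X box letters occurred in 5 members (6.25%) against 3.837%, and Y box letters in 5 (6.25%) against 2.291%. Counts for the other letters were 11 for GAAANNGAA (IRF, 13.75% against 13.79%), 9 for TTCNNNGAA (STAT, 11.25% against 10.83%), 13 for TTGCNNAA (CEBP, 16.25% against 20.46%), 13 for AACCACA (RUNX, 16.25% against 17.32%) and 12 for AGGGGGC (CTCF, 15% against 11.22%). All 5 members with the PU.1 letters were called lower in LSK and 4 of them in GMP, beside 51.9% and 47.2% of the 12706 regions of the table with these letters. They are the far upstream Ciita region, the region between H2-Aa and H2-Eb1, Cd74 regions at -14.4 and +2.1 kb and the region downstream of H2-DMb1. With the composite letters, 9 of 20 were called lower in LSK and 10 of 20 in GMP, beside 29.9% and 32.3% of 17046. With neither, 11 of 56 were called lower in each cell type, beside 19.7% and 20% of 93812. A match is a description of the sequence and not a shown binding site.

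The factors that work with CIITA had accessible promoters in both genotypes. The list of partners (Rfx5, Rfxap, Rfxank, Nfya, Nfyb, Nfyc and Creb1) had 66 regions in windows of the same width, of which 16 were called lower and 7 higher in LSK (24.2% and 10.6%) and 12 lower and 8 higher in GMP (18.2% and 12.1%). Over all regions these shares were 23.9% and 13.6% in LSK and 24.1% and 15.6% in GMP, so the list lay near or below them. None of the 7 genes' most-counted promoter regions was called in either cell type. Rfx5, the subunit of the RFX complex that binds the X box, had 66 ± 4.84 CPM in WT and 74.1 ± 4.69 CPM in URE among LSK libraries at its promoter. Median log2 ratios of the list were 0.12 and 0.18 in LSK and GMP, beside 0.14 and 0.06 over all regions. Among factors known to act on Ciita, Spi1 fell at its own promoter in LSK from 35.2 ± 1.27 to 5.64 ± 2.81 CPM (-2.65 ± 0.25, edgeR adjusted p = 2.20e-07), and in GMP had 35.7 ± 1.7 against 24.9 ± 3.98 CPM (-0.52 ± 0.22, edgeR adjusted p = 0.0555). The Irf4 promoter, of an IRF factor that binds DNA with PU.1, fell in LSK from 14.5 ± 0.599 to 5.48 ± 0.971 CPM (-1.40 ± 0.18, edgeR adjusted p = 6.59e-06), and stood at 15.7 ± 3.36 against 8.66 ± 1.16 CPM in GMP without reaching 2-fold (-0.86 ± 0.18, edgeR adjusted p = 0.000529). The Irf8 promoter had a mean of 20.02 CPM in LSK of both genotypes, and in GMP 27.9 ± 3.87 against 17.9 ± 1.58 CPM, also under 2-fold (-0.64 ± 0.12, edgeR adjusted p = 0.000279).

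In the antigen-processing list (Ctss, Ctsl, Ctsb, Lgmn, Ifi30, March1, Cd83, Cd80 and Cd86), 43 of 104 regions were called lower and 11 higher in LSK (41.3% and 10.6%), and 48 lower and 9 higher in GMP (46.2% and 8.65%), beside the shares of all regions given above. Its median log2 ratios were -0.35 and -0.58, beside 0.14 and 0.06 over all regions. The promoters named from the pathway lists were chosen after their values were seen. The promoter of Ctss, the protease that trims the invariant chain, fell in LSK from 4.71 ± 0.704 to 0.693 ± 0.226 CPM (-2.77 ± 0.32, edgeR adjusted p = 2.14e-06) and in GMP from 3.97 ± 0.45 to 0.661 ± 0.317 CPM (-2.55 ± 0.32, edgeR adjusted p = 5.24e-06). March1, whose product removes class II from the cell surface, fell at its promoter in LSK (-4.12 ± 0.66, edgeR adjusted p = 5.77e-05) and GMP (-3.62 ± 0.48, edgeR adjusted p = 1.15e-05), and so did the promoter of the costimulator Cd86 (-1.54 ± 0.18, edgeR adjusted p = 2.03e-06 and -1.29 ± 0.18, edgeR adjusted p = 1.37e-05). At Ctsl, Ctsb, Lgmn, Ifi30 and Cd83 the most-counted promoter region was called in neither cell type, with log2 ratios between -0.27 and 0.28. Cd80 had no promoter region. Other class II genes (H2-DMb2, H2-Oa, H2-Ob, H2-Ea-ps and H2-Eb2) had 20 regions outside the 80, of which 0 lay at H2-DMb2 and 2 at H2-Ob. The promoters of H2-DMb2 and H2-Ob are among the 80. Of the 20 regions, 6 were lower and none higher in LSK (30.0% lower, median -0.01), and 5 lower and 1 higher in GMP (25.0% and 5.0%, median 0.21). The steepest in LSK, chr17:34094743-34095013, lay in the window of H2-Oa at a promoter of BC051537. It had 3.53 ± 0.597 CPM in WT and 0.0766 ± 0.0426 CPM in URE among LSK libraries (-5.42 ± 0.42, edgeR adjusted p = 3.60e-08). For contrast, MHC class I genes (Tap1, Tap2, Tapbp, Psmb8, Psmb9, B2m, Nlrc5, H2-K1 and H2-D1, 79 regions) had 12 lower and 4 higher in LSK (15.2% and 5.06%) and 8 lower and 13 higher in GMP (10.1% and 16.5%), with medians of 0.18 and 0.26, and the promoters of B2m, H2-K1 and H2-D1 were not called in either.

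Likeness was measured as the Euclidean distance between the 4 group means of log2 CPM, each centred, over the most-counted promoter region of each of 19255 other genes. Nearest to the H2-Ab1 promoter were Erc2 (0.0139), then Gm26876 and Ikzf4, which share 1 region (0.0288), Shisal2a (0.0447) and Gm34583 (0.049). Among the other class II genes H2-DMb1 ranked 185 (0.194), H2-Eb1 1425 (0.409) and H2-Aa 2679 (0.528), and Cd74 ranked 17391 (1.77). The most-counted Ciita promoter region was promoter IV, and Gpr171 (0.0953), Dync1i1 (0.119), C130060K24Rik (0.119), Tmem63c (0.128) and Treml1 (0.133) were nearest to it. H2-Aa ranked 467 (0.541) and Cd74 7402 (1.47) from there. With 4 group means per gene, many genes lie close by.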

How the data were processed

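ATAC-seq (OmniATAC) was performed on sorted LSK cells and GMPs of wild-type and UREd/d mice, with 3 libraries per group and 12 in all. Per the labels and the study's methods, the authors trimmed adapters with cutadapt, aligned reads to GRCm38 with Bowtie2, removed duplicates and non-primary chromosomes, called peaks per group with Genrich, merged them with bedtools and counted reads per region with featureCounts. The deposited values are these raw counts for 121336 regions, from which member regions were taken with the GENCODE M21 basic annotation. Their starts were read as counted from 0 and are printed counted from 1. Peaks were called on the groups that are compared, and how the counter treated multi-mapping reads or fragment ends is not given in the sources used here.

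Counts of all regions and libraries were fitted with edgeR 4.0.16 (R 4.3.3, quasi-likelihood, TMM factors, 1 coefficient per group), and p-values were adjusted by Benjamini-Hochberg over all regions. The filter on low counts removed no region. CPM values use the TMM-scaled totals. A region was called at an adjusted p under 0.05 and an absolute log2 ratio over 1, and a promoter region lies within 500 bp of an annotated start. The test was tried on simulated counts first. The labels do not say whether same-numbered libraries came from 1 mouse. Deviations of same-numbered libraries correlated with r = 0.181, 0.191 and 0.207 between WT-LSK and WT-GMP, 0.0616, 0.273 and 0.113 between URE-LSK and URE-GMP, 0.102, 0.0625 and -0.0616 between genotypes in LSK and 0.0997, 0.205 and 0.349 in GMP, so that the criterion of over 0.1 in every pair was met in the wild type only.

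Named regions were the promoter regions of the 7 genes, the most counted other region of each gene, and, in each comparison, the 5 called regions with the largest ratios in each direction. Member regions described beyond this rule were chosen after their values were seen. The members and lists were chosen with earlier results of these data known, and parts of 2 gene lists are not reported here. Alternatives were DESeq2 1.42.0, RLE factors, library size only, loess and GC content offsets, a mean CPM of at least 2, no filter, no fold threshold, glmTreat, fits of the compared groups only, a replicate block, other windows and leaving out each library. Each group came from 3 mice. The p-values rest on the spread between libraries within groups, estimated over all 4 groups with every library taken as independent. If LSK and GMP libraries shared mice, the p-values between cell types and for the interaction do not account for it.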

Additional observations from a re-analysis of the deposited data

Results flagged for a closer look

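At 12 of the named regions the genotype effect differed between the cell types by the interaction term of the edgeR fit (adjusted p under 0.05, difference over 1 on the log2 scale). Above 0 were the region between H2-Aa and H2-Eb1, chr17:34293471-34293962 (2.65), chr17:34335986-34336279 in H2-Eb2 (2.60), chr18:60795166-60795409 upstream of Cd74 (2.36), chr16:10532325-10532558 in Dexi (2.30) and chr17:34248765-34249095 in H2-Ob (2.04). The Dexi value was no longer called without WT-LSK replicate 3 (1.87, edgeR adjusted p = 0.0976).

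Below 0 were chr17:34170240-34170520 downstream of H2-DMb1 (-2.30), chr17:34130018-34130233 in an H2-DMa intron (-1.76), chr17:34150205-34150467 before H2-DMb1 (-1.5), chr17:34287064-34287353 in H2-Aa (-1.25), chr17:34169340-34169630 downstream of H2-DMb1 (-1.10), chr17:34102900-34103282 upstream of H2-DMa (-1.10) and the far upstream Ciita region chr16:10461220-10461668 (-1.07). The last was not called with RLE factors (edgeR adjusted p = 0.053), with library size only (edgeR adjusted p = 0.0526) or in 10 of the 12 fits that left out a library. The values for chr17:34150205-34150467 and chr17:34102900-34103282 were each lost in 7 of those 12 fits, that for chr17:34169340-34169630 without WT-LSK replicate 2 (-0.98) or WT-GMP replicate 3 (-0.93), and that for chr17:34287064-34287353 without WT-GMP replicate 1 (-0.96).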

How the results depend on the processing

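Of 129 calls at the 80 regions over the 5 comparisons, 96 were kept wherever the region was tested under all alternatives other than glmTreat, 33 were lost under at least 1, and glmTreat lost 45. The count of 26 regions called in LSK became 46 with no fold threshold, 11 with gene bodies only (38 regions) and 46 with 50 kb windows (139 regions). In GMP 33 became 19 at a mean CPM of at least 2 (63 regions), 13 with gene bodies and 50 with 50 kb windows. Between cell types in WT 22 became 12 at that CPM, 12 with glmTreat, 47 with no fold threshold, 9 with gene bodies and 34 with 50 kb windows, and in URE 32 became 21 with glmTreat, 12 with gene bodies and 53 with 50 kb windows. For the interaction 16 became 2 with glmTreat and 4 with gene bodies. Over all regions, glmTreat also lowered the calls, from 45878 to 28352 in WT, from 59636 to 45592 in URE and from 16975 to 3703 for the interaction. A mean CPM of at least 2 lowered them from 48159 to 21987 in GMP and from 45878 to 21977 in WT. Leaving out 1 library gave 25 to 29 (LSK), 31 to 33 (GMP), 20 to 27 (WT), 30 to 37 (URE) and 10 to 15 (interaction, 10 without URE-GMP replicate 1).

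With the replicate number as a block, the counts were 27 in LSK, 33 in GMP, 22 in WT, 32 in URE and 16 for the interaction, and the block ended no call at a member. The block joins WT and URE libraries of the same number. It therefore does not model LSK and GMP libraries of the same mouse, and the effect of such pairing was not tested.

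Signs turned at these differences. With loess offsets, chr16:10489180-10489387 stood at 0.25 in LSK (against -1.04) and chr17:34117848-34120044 at -0.05 in GMP. With library size only, the LSK ratios of the H2-DMb1 and H2-Ab1 promoters were -0.06 and -0.02. With GC content offsets, LSK ratios were 0.01 at chr17:34102900-34103282, 0.12 at chr17:34287064-34287353, 0.18 at the H2-Aa promoter and 0.26 at the H2-Eb1 promoter, and GMP ratios 0.01 at chr17:34304801-34305095 and 0.26 at the H2-Eb1 promoter. Leaving out libraries moved the H2-DMb1 promoter in LSK between -0.04 and 0.14, the H2-Ab1 promoter between -0.02 and 0.20, and the H2-Eb1 promoter in GMP between -0.18 and 0.01. The median of all regions shifted by -0.12 with library size only and by 0.14 and 0.15 with GC content offsets in LSK and GMP. The cause was not tested. At 3 counts per library, CPM values under about 0.1 are at the counting floor.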
